A study of Mus musculus with 12 samples.

Results

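The interferon-stimulated antiviral genes are a module of 42 mouse genes whose products detect, bind or degrade viral nucleic acid, hold viruses at membranes or tune the interferon response. They were chosen by symbol from a list of members, and all 42 had a row in a count table of 36491 gene identifiers. All 42 also passed the filter on low counts that left 18875 genes for testing.

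The study asked how macrophages that enter the brain from the periphery, and the microglia beside them, respond to an immune challenge. CD11b+ cells were taken from brains of adult male wild type C57BL/6J mice aged 6 months, using magnetic beads, and are labelled as microglia. All mice had received a bone marrow transplant and later ate PLX5622 for 2 weeks, a drug that blocks the CSF1 receptor and kills microglia, with 6 weeks on standard chow after that. The unshielded LPS group had no head shield at the transplant and received 50 µg of LPS (lipopolysaccharide) into the abdomen, which Toll-like receptor 4 senses. The unshielded group without LPS had the same transplant and is labelled with saline. The shielded LPS group wore a head shield at the transplant and received the same LPS dose. The shielded group without LPS had the shield and, by its titles, no LPS. Cells were sorted 6 hours after injection, and each of the 4 groups had 3 libraries. Because every group had the transplant and PLX5622, none shows untreated microglia.

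Type I interferons bind the receptor formed by IFNAR1 and IFNAR2, whose kinases JAK1 and TYK2 activate transcription factors of the STAT family. With IRF9 these form a complex that binds a DNA element called the interferon-stimulated response element (ISRE) in the promoters of many of the genes described here. Macrophages and microglia make interferon beta after Toll-like receptor 4 engages the adaptor TICAM1 (TRIF), and their own receptors then respond to it.

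For the shielded libraries 2 and 3 without LPS, the treatment field says LPS although the titles do not. The mean over the 42 members of log2 CPM, the counts scaled to library size, was 4.31 and 4.19 in these libraries and 4.70 in shielded library 1 without LPS. It was 4.52 to 4.81 in the unshielded libraries without LPS, and the lowest LPS library stood at 6.46. Groups follow the titles, and results are also given without these libraries where that ends a call.

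Library totals were highest in unshielded LPS libraries, at 56776710 to 60495968 counts, against 18090977 to 40792878 in unshielded libraries without LPS. They were 29794946 to 40730784 in shielded LPS libraries and 28770354 to 42931839 in shielded libraries without LPS. All 8 microglia markers had counts in every library, and their summed level was 4580 to 5470 CPM in unshielded LPS libraries, 7910 to 10300 without LPS, 9790 to 10900 in shielded LPS libraries and 16300 to 19500 without LPS. Markers of marrow-derived brain macrophages (7 genes) summed to 87700 to 115000 CPM in unshielded LPS libraries and 64100 to 97200 CPM without LPS. In shielded libraries the sums were 3670 to 5770 CPM after LPS and 7950 to 26600 CPM without LPS. Apoe made up most of each sum. After LPS single markers moved both ways, from -2.58 to 3.27 on the log2 scale in shielded and -2.21 to 2.26 in unshielded mice. Monocyte markers (6 genes) summed to 208 to 266 CPM in unshielded and 524 to 586 CPM in shielded LPS libraries, against 78.1 to 107 CPM without LPS. Most of the shielded LPS sums was Fn1, with 11723 to 16610 counts a library, against 5283 to 7599 in unshielded LPS libraries. After LPS 1 of the 6 was called lower in unshielded than in shielded mice and none higher, at a median log2 difference of 0.185. Of all genes, 25.6% were lower and 19.1% higher there. Neuron markers (8 genes) were lowest in shielded LPS libraries, at 32.9 to 163 CPM, against 116 to 339 CPM in the other groups. Neutrophil markers (8 genes) summed to 1030, 337 and 276 CPM in unshielded LPS libraries 1, 2 and 3, against 51.6 to 158 CPM in unshielded libraries without LPS, and 6 of 8 were called higher. They summed to 306 to 519 CPM in shielded LPS libraries, against 164 to 386 CPM in shielded libraries without LPS, and 2 of 8 were called higher. T and natural killer cell markers summed to at most 4.19 CPM. Mitochondrial genes took 1.82 to 1.96% of counts in unshielded LPS libraries, against 2.06 to 2.22% in unshielded libraries without LPS. They took 1.53 to 1.93% in shielded LPS libraries, against 2.16 to 2.18% in shielded libraries without LPS. The part of these differences in the results below was not tested, and in bulk libraries fewer cells of a type and less RNA per cell cannot be told apart.

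LPS raised nearly the whole module in both kinds of mice. In unshielded mice 41 of 42 members were higher after LPS (edgeR quasi-likelihood test, adjusted p under 0.05), where 43.1% of all genes tested were called, 24.3% higher and 18.8% lower. The exception was Bst2. In shielded mice 42 of 42 members were higher, where 67.5% of all genes were called, 32.4% higher and 35.1% lower. The median log2 fold change of the members was 1.97 in unshielded and 2.01 in shielded mice, against -0.06 and -0.14 over all genes tested. In each kind of mouse 38 members were at least 2-fold higher, as were 1339 of the 18875 genes tested in unshielded and 2325 in shielded mice. LPS and no-LPS libraries did not overlap for 41 members in unshielded mice, where 29.6% of all genes were higher and 31.7% lower without overlap. They did not overlap for 41 members in shielded mice either, where 34.1% of all genes were higher and 35.7% lower, and each time the exception was Bst2. The members took 0.587 ± 0.0301% of all counts in unshielded LPS libraries and 0.244 ± 0.0158% in unshielded libraries without LPS (SD, n = 3 each). The share was 0.516 ± 0.0595% in shielded LPS libraries and 0.207 ± 0.0213% in shielded libraries without LPS. With library totals in place of TMM scaling, the median log2 fold change of all genes was -0.36 in unshielded and -0.49 in shielded mice, that of the members was 1.67 and 1.66, and 40 members were called higher in each. Without the 2 shielded libraries whose labels conflict, 40 members were called in shielded mice, Samhd1 (0.28, adjusted p = 0.21) and Bst2 (0.23, adjusted p = 0.424) missing the threshold. With those libraries grouped as LPS by their treatment field, no member was called for LPS in either kind of mouse, although the median log2 fold change of the members was 1.94 in unshielded and 1.25 in shielded mice. Nothing in the labels ties a library to its own animal, so the p-values here rest on a spread between samples that may be technical.

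**Figure D1:**
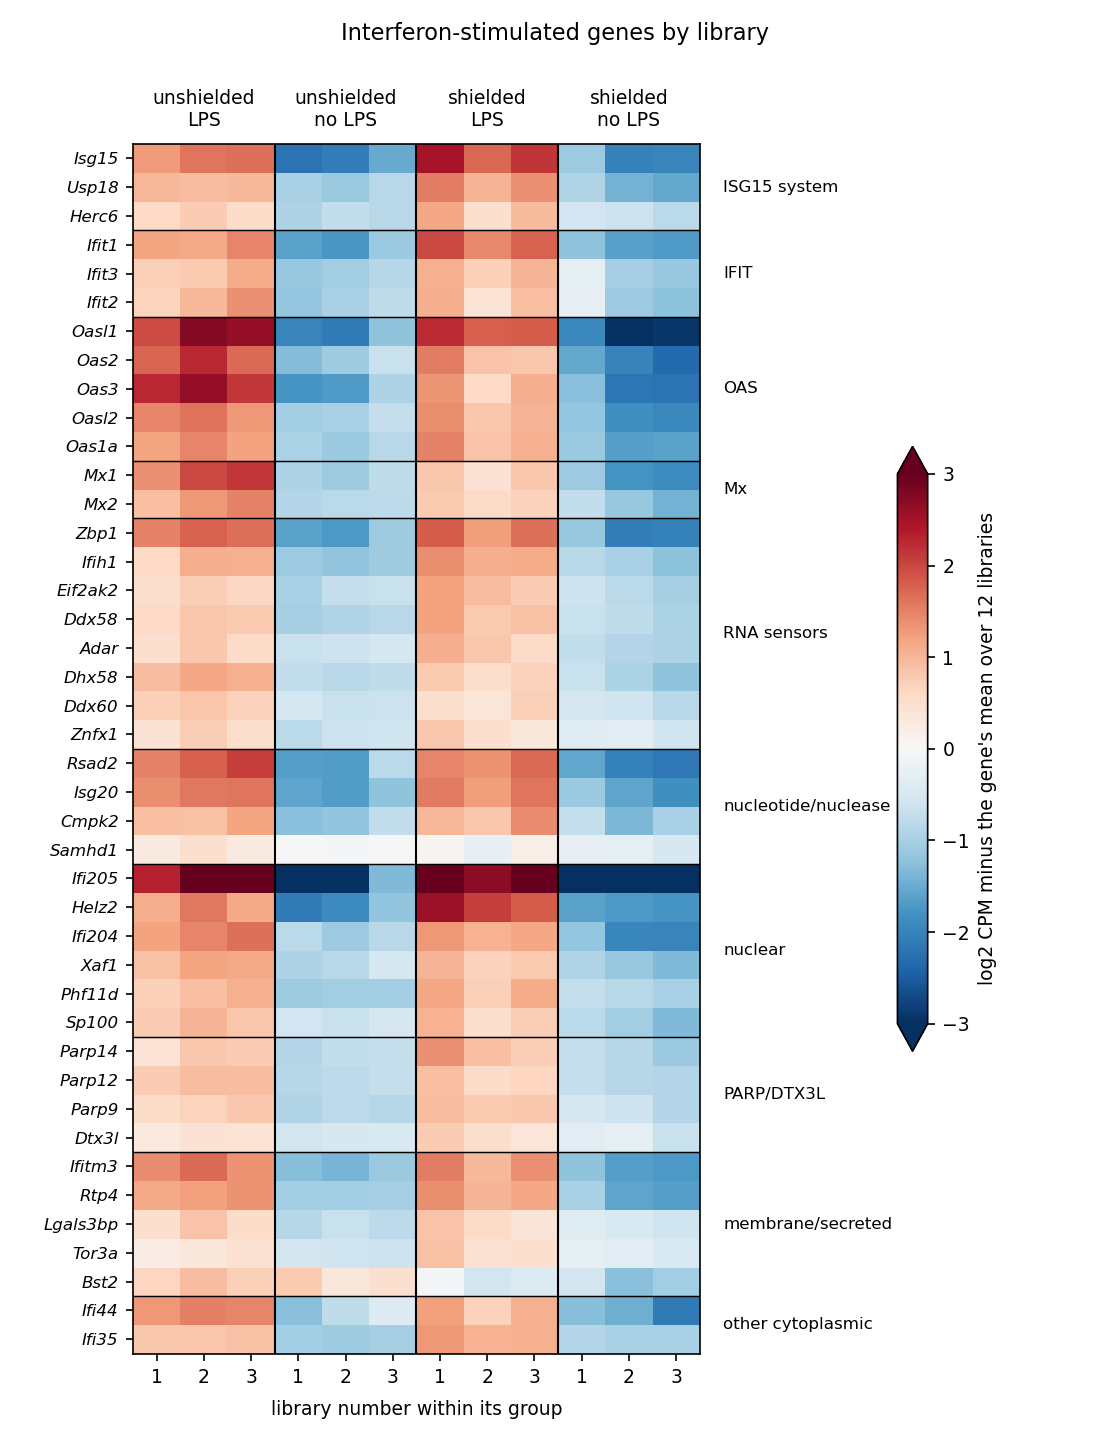
Each row is a member and each column a library; the colour is its log2 CPM minus the gene's mean over the 12 libraries, and colours stop at 3 in either direction. The 6 LPS libraries stand above the 6 libraries without LPS in nearly every row, except for Bst2, which follows the shield more than LPS, and Samhd1, whose colours are pale throughout.

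Promoters are shown for 6 members that span the range of responses to LPS described next: the strongly raised Isg15, Ifit1, Ifi205 and Oasl1, and the weakly responding Bst2 and Samhd1. The sequences are RefSeq promoters on GRCm38.p6, 250 bases before to 50 after a transcript start, a later build than the mm9 named in the submitters' processing notes. Capitals mark matches to the ISRE core, spelled GAAA, any 2 bases and GAAA, or TTTC, any 2 bases and TTTC on the other strand.
Isg15: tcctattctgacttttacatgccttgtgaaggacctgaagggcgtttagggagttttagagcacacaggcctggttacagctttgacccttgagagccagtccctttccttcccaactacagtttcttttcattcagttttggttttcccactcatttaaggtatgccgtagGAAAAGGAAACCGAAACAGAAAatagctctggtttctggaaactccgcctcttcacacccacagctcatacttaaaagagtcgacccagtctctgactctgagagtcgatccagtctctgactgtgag
Ifit1: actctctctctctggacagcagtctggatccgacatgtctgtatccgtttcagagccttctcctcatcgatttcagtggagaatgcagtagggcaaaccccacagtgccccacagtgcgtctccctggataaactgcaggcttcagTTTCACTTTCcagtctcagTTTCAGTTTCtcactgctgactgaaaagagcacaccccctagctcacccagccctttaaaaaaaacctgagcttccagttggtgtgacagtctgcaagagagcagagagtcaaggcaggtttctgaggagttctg
Ifi205: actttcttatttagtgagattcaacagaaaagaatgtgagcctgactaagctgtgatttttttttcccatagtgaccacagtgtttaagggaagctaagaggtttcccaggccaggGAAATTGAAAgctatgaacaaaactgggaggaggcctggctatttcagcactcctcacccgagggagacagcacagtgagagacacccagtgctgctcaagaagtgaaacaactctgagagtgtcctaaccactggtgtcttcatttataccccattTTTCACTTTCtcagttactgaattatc
Oasl1: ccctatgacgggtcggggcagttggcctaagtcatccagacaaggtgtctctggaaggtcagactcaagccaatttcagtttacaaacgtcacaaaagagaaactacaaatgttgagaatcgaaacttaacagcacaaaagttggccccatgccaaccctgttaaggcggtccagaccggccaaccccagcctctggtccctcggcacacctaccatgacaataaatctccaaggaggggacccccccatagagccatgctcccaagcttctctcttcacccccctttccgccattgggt
Bst2: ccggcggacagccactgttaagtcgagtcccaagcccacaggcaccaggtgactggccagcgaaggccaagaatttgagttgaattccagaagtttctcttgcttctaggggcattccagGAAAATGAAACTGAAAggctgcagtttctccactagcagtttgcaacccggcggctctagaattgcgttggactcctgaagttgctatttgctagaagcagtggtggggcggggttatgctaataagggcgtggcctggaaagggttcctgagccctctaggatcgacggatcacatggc
Samhd1: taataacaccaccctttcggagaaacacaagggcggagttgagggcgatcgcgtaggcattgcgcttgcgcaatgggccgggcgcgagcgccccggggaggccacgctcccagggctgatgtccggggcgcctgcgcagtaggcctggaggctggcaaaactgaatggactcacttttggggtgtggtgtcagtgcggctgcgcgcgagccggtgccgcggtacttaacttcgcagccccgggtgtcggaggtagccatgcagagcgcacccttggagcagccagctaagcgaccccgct
Isg15 (ENSMUSG00000035692) lies at chr4:156200769-156201068 on the minus strand, Ifit1 (ENSMUSG00000034459) at chr19:34640639-34640938 on the plus strand and Ifi205 (ENSMUSG00000054203) at chr1:174031706-174032005 on the minus strand. Oasl1 (ENSMUSG00000041827) lies at chr5:114922990-114923289 on the plus strand, Bst2 (ENSMUSG00000046718) at chr8:71537423-71537722 on the minus strand and Samhd1 (ENSMUSG00000027639) at chr2:157135047-157135346 on the minus strand. The Isg15 window holds 3 matches that overlap in a single run, and the Bst2 window holds 2 that overlap. Ifit1 and Ifi205 hold 2 separate matches each, and the windows of Oasl1 and Samhd1 hold none of these letters. The Bst2 and Samhd1 windows each hold 1 match to the GAS motif described next, and in Bst2 it overlaps a core.

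Promoters were in the table for 31 of the 42 members. The ISRE core, searched on both strands like the other motifs, was in a promoter of 13 of these 31 members (41.9%), against 3.99% of 27025 genes. A longer form, the core followed by CT, was in 22.6% of the members and 0.303% of all genes. The GAS motif TTCNNNGAA, named for gamma interferon activation, was in 29% of the members and 9.55% of all genes. The kappa B motif, spelled GGG, any 2 bases and TTTCC, was in none of the 31 members and in 1.89% of all genes. The median log2 fold change after LPS in unshielded mice was 2.25 for the 13 members with an ISRE core, 1.85 for the 18 without it and 2.09 for the 11 with no promoter in the table. In shielded mice these medians were 2.60, 1.84 and 2.22. Bst2, with 2 cores, and Samhd1, with none, had the smallest changes in both kinds of mice.

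Isg15 encodes a ubiquitin-like protein that is attached to other proteins, Herc6 the mouse ligase that attaches it, and Usp18 the protease that removes it and blocks the interferon receptor. All 3 rose in both kinds of mice. Isg15 had 48.9, 61.4 and 62.9 CPM in unshielded LPS libraries, against 4.33, 4.77 and 7.003 CPM in unshielded libraries without LPS. For Isg15, shielded LPS libraries had 111, 66.3 and 88.4 CPM, against 9.46, 4.91 and 5.05 CPM in shielded libraries without LPS. The shielded LPS libraries were the highest of the 4 groups, and LPS and no-LPS libraries were far apart. Its log2 fold change was 3.42 ± 0.30 in unshielded and 3.76 ± 0.30 in shielded mice (SE; edgeR adjusted p = 6.32e-06 and 1.08e-06). Herc6 had the smallest change of the 3. It had 42.7, 47.2 and 41.3 CPM in unshielded LPS libraries, against 14.8, 16.8 and 15.7 CPM in unshielded libraries without LPS. For Herc6, shielded LPS libraries had 62.9, 38.8 and 54.05 CPM, against 18.9, 17.97 and 15.9 CPM in shielded libraries without LPS. No LPS library overlapped a library without LPS, and the log2 fold change was 1.48 ± 0.15 in unshielded and 1.56 ± 0.15 in shielded mice (edgeR adjusted p = 7.31e-06 and 1.62e-06). Usp18 changed by 1.93 ± 0.16 in unshielded and 2.58 ± 0.17 in shielded mice on the log2 scale (edgeR adjusted p = 2.49e-06 and 1.14e-07). Herc6 shares 1269 exon bases with Gm45193 on the same strand, so its counts are uncertain.

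The IFIT proteins bind viral RNA, and Ifit1 does so at cap structures that lack the host's methyl marks. All 3 members rose. Ifit1, with the largest change, had 34.4, 33.5 and 41.9 CPM in unshielded LPS libraries, against 5.02, 4.53 and 7.03 CPM in unshielded libraries without LPS. For Ifit1, shielded LPS libraries had 60.1, 41.5 and 51.5 CPM, against 6.59, 4.88 and 4.64 CPM in shielded libraries without LPS. LPS libraries lay well apart from the others in both kinds of mice, at log2 fold changes of 2.72 ± 0.20 and 3.24 ± 0.20 in unshielded and shielded mice (edgeR adjusted p = 8.92e-07 and 9.09e-08). Ifit2, which had the smallest change in shielded mice, had 81.9, 103 and 132 CPM in unshielded LPS libraries, against 22.9, 26.1 and 30.1 CPM in unshielded libraries without LPS. For Ifit2, shielded LPS libraries had 109.8, 68.5 and 96.5 CPM, against 43.5, 24.2 and 21.97 CPM in shielded libraries without LPS. Shielded library 1 without LPS was the highest of the libraries without LPS, yet below every LPS library. The log2 fold change of Ifit2 was 2.0 ± 0.28 in unshielded and 1.61 ± 0.28 in shielded mice (edgeR adjusted p = 0.000188 and 0.000418). Ifit3, with the smallest change in unshielded mice, had 56.5, 59.1 and 74.5 CPM in unshielded LPS libraries, against 15.6, 16.5 and 18.99 CPM in unshielded libraries without LPS. For Ifit3, shielded LPS libraries had 71.7, 56.2 and 69 CPM, against 28.6, 17.2 and 15.7 CPM in shielded libraries without LPS. LPS and no-LPS libraries did not overlap. The log2 fold changes were 1.89 ± 0.21 and 1.68 ± 0.21 in unshielded and shielded mice (edgeR adjusted p = 2.62e-05 and 2.68e-05). Ifit3 has a near-identical neighbour, Ifit3b, so the split of reads between them is uncertain.

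The 2'-5' oligoadenylate synthetases are switched on by double-stranded RNA and then make short chains of adenylate that act as a messenger. Mouse Oasl1 lacks this activity and restrains translation of Irf7 mRNA. All 5 members rose, by 2.25 to 4.19 on the log2 scale in unshielded and 2.60 to 4.49 in shielded mice. Oasl1, with the largest change, had 96.1, 166 and 153 CPM in unshielded LPS libraries, against 6.22, 5.73 and 10.7 CPM in unshielded libraries without LPS. For Oasl1, shielded LPS libraries had 116, 85.5 and 87.5 CPM, against 6.44, 3.04 and 3.27 CPM in shielded libraries without LPS. LPS libraries were far above the others, at log2 fold changes of 4.19 ± 0.35 and 4.49 ± 0.36 in unshielded and shielded mice (edgeR adjusted p = 5.37e-06 and 1.36e-06). Oas1a had the smallest change, with 89.3, 108 and 90.7 CPM in unshielded LPS libraries, against 20.2, 18.2 and 21.9 CPM in unshielded libraries without LPS. For Oas1a, shielded LPS libraries had 110.2, 70.95 and 82.7 CPM, against 18.04, 12.4 and 12.9 CPM in shielded libraries without LPS. LPS and no-LPS libraries were again separate. Its log2 fold change was 2.25 ± 0.18 in unshielded and 2.60 ± 0.18 in shielded mice (edgeR adjusted p = 1.61e-06 and 2.04e-07). Oas2 changed by 2.91 ± 0.28 and 3.02 ± 0.29, Oas3 by 3.76 ± 0.33 and 2.84 ± 0.32, and Oasl2 by 2.37 ± 0.21 and 2.71 ± 0.21 in unshielded and shielded mice (edgeR adjusted p at most 1.85e-05). With the neuron and oligodendrocyte marker level as a covariate, the Oas2 value in shielded mice was 2.23. Oas genes have similar copies in the mouse genome, so reads can match more than 1 of them.

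The Mx proteins are GTPases that block virus replication, although many laboratory strains carry defective alleles of them. Mx1 had 107, 162 and 179 CPM in unshielded LPS libraries, against 21.5, 19.7 and 24.1 CPM in unshielded libraries without LPS. For Mx1, shielded LPS libraries had 71.98, 55.7 and 71.6 CPM, against 19.4, 11.9 and 11.2 CPM in shielded libraries without LPS. It stood out by its level in unshielded LPS libraries, which lay above every other library. The log2 fold change was 2.78 ± 0.24 in unshielded and 2.22 ± 0.24 in shielded mice (edgeR adjusted p = 5.21e-06 and 9.54e-06). Mx2 had 36.4, 47.8 and 54.5 CPM in unshielded LPS libraries, against 10.5, 10.98 and 11.1 CPM in unshielded libraries without LPS. For Mx2, shielded LPS libraries had 33.4, 28.8 and 31.3 CPM, against 11.7, 8.76 and 7.17 CPM in shielded libraries without LPS. The order of the groups was that of Mx1, with log2 fold changes of 2.09 ± 0.17 and 1.76 ± 0.17 in unshielded and shielded mice (edgeR adjusted p = 2.29e-06 and 2.98e-06).

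The 8 members that sense or act on RNA all rose in both kinds of mice. They include the viral RNA helicases Ddx58 (RIG-I), Ifih1 (MDA5) and Dhx58 (LGP2), Zbp1, which binds Z-form nucleic acid and can start necroptosis, the kinase Eif2ak2 (PKR), which stops translation, and Adar, which edits adenosine in double-stranded RNA. Zbp1, with the largest change, had 88.2, 107 and 99.03 CPM in unshielded LPS libraries, against 10.4, 9.53 and 15.1 CPM in unshielded libraries without LPS. For Zbp1, shielded LPS libraries had 111, 74.8 and 98.7 CPM, against 14.2, 7.46 and 7.78 CPM in shielded libraries without LPS. LPS and no-LPS libraries lay far apart, at log2 fold changes of 3.06 ± 0.27 and 3.27 ± 0.27 in unshielded and shielded mice (edgeR adjusted p = 5.73e-06 and 1.31e-06). Adar had the smallest change in unshielded mice, with 156, 192 and 162 CPM in unshielded LPS libraries, against 68.5, 70.9 and 76.5 CPM in unshielded libraries without LPS. For Adar, shielded LPS libraries had 234, 192 and 163 CPM, against 65.3, 59.5 and 57.9 CPM in shielded libraries without LPS. The log2 fold change of Adar was 1.24 ± 0.13 in unshielded and 1.69 ± 0.13 in shielded mice, without overlap (edgeR adjusted p = 9.17e-06 and 3.04e-07). Znfx1, a helicase-like RNA sensor, had the smallest change in shielded mice. It had 306, 372 and 324 CPM in unshielded LPS libraries, against 129, 143 and 149 CPM in unshielded libraries without LPS. For Znfx1, shielded LPS libraries had 392, 318 and 285 CPM, against 174, 176 and 149 CPM in shielded libraries without LPS. Its LPS and no-LPS libraries did not overlap. The log2 fold change was 1.25 ± 0.13 in unshielded and 1.0 ± 0.13 in shielded mice (edgeR adjusted p = 9.3e-06 and 2.33e-05). The other 5 ran from 1.36 (Ddx60) to 2.04 (Ifih1) on the log2 scale in unshielded mice. In shielded mice they ran from 1.17 (Ddx60) to 2.21 (Ifih1), with edgeR adjusted p at most 5.12e-06 over both. Adar shares 1365 exon bases with Chrnb2 on the other strand, and since the strand setting of the counting is not given in the sources used here, its counts are uncertain.

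Rsad2 (viperin) makes a nucleotide that ends viral RNA chains, its neighbour Cmpk2 is a mitochondrial nucleotide kinase, Isg20 is a nuclease, and Samhd1 breaks down the deoxynucleotides that viruses need. Rsad2 had 122, 152 and 184 CPM in unshielded LPS libraries, against 13.8, 13.6 and 24.7 CPM in unshielded libraries without LPS. For Rsad2, shielded LPS libraries had 120.2, 111 and 140.5 CPM, against 14.8, 10.7 and 9.81 CPM in shielded libraries without LPS. Unshielded library 3 without LPS was the highest of the libraries without LPS, yet below every LPS library. The log2 fold change was 3.13 ± 0.26 in unshielded and 3.39 ± 0.26 in shielded mice (edgeR adjusted p = 4.21e-06 and 8.55e-07). Isg20 (3.0 ± 0.18 and 2.96 ± 0.18) and Cmpk2 (2.04 ± 0.20 and 2.09 ± 0.20) rose in unshielded and shielded mice (edgeR adjusted p at most 1.15e-05). Samhd1 had 197, 228 and 196 CPM in unshielded LPS libraries, against 164, 156 and 163 CPM in unshielded libraries without LPS. For Samhd1, shielded LPS libraries had 172, 138 and 187 CPM, against 136, 135 and 116 CPM in shielded libraries without LPS. LPS libraries were above the others in both, but by little, and the log2 fold change was 0.36 ± 0.11 in unshielded and 0.36 ± 0.12 in shielded mice (edgeR adjusted p = 0.0225 and 0.015). With library totals these were 0.06 and 0.02 (adjusted p = 0.686 and 0.868). In unshielded mice the call ended without LPS library 2 (0.31) or without library 1, 2 or 3 of the group without LPS (0.34, 0.31 and 0.34), and in shielded mice without library 3 of the group without LPS (0.30). A fit of the shielded libraries blocked by their number gave 0.34 (edgeR adjusted p = 0.0581).

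Of the 6 nuclear members, Ifi204 and Ifi205 belong to the family of DNA-binding PYHIN proteins, Sp100 to nuclear bodies, Xaf1 to the regulators of cell death, Phf11d to a family with a zinc finger, and Helz2 to the helicases. All 6 rose. Ifi205, with the largest change of the module, had 11.4, 21.9 and 24.5 CPM in unshielded LPS libraries, against 0.274, 0.193 and 0.922 CPM in unshielded libraries without LPS. For Ifi205, shielded LPS libraries had 24.4, 14.9 and 22.4 CPM, against 0.259, 0.162 and 0.238 CPM in shielded libraries without LPS. It was nearly silent without LPS, at 4 to 32 counts a library, and unshielded library 3 stood above the others there. The log2 fold change was 5.32 ± 0.47 in unshielded and 6.50 ± 0.51 in shielded mice (edgeR adjusted p = 6.75e-06 and 9.4e-07), and 6.25 in unshielded mice without that library. Helz2 had 87.2, 124 and 90.7 CPM in unshielded LPS libraries, against 9.69, 11.03 and 18.04 CPM in unshielded libraries without LPS. For Helz2, shielded LPS libraries had 247, 173 and 146 CPM, against 13.4, 12.5 and 12.1 CPM in shielded libraries without LPS. The shielded LPS libraries were above all others, and the log2 fold change was 2.96 ± 0.26 in unshielded and 3.89 ± 0.27 in shielded mice (edgeR adjusted p = 6.19e-06 and 3.72e-07). With the neuron and oligodendrocyte covariate, the value in shielded mice was 3.21. Sp100 had the smallest change of the 6, with 159, 191 and 168 CPM in unshielded LPS libraries, against 62.6, 59.2 and 66.6 CPM in unshielded libraries without LPS. For Sp100, shielded LPS libraries had 193, 135 and 156 CPM, against 53.3, 45.5 and 37.7 CPM in shielded libraries without LPS. LPS and no-LPS libraries did not overlap, at log2 fold changes of 1.46 ± 0.15 and 1.83 ± 0.15 in unshielded and shielded mice (edgeR adjusted p = 7.79e-06 and 4.95e-07). Ifi204 (2.35 ± 0.21 and 2.81 ± 0.21), Xaf1 (1.82 ± 0.14 and 1.94 ± 0.14) and Phf11d (1.94 ± 0.13 and 1.84 ± 0.13) lay between in both kinds of mice. Ifi204 and Ifi205 have similar copies, so their counts are uncertain.

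Parp9, Parp12 and Parp14 belong to the ADP-ribosyltransferase family, and the ubiquitin ligase Dtx3l works in a complex with PARP9. Parp12, with the largest change in unshielded mice, had 175, 197 and 196 CPM in unshielded LPS libraries, against 56.7, 60.04 and 62.3 CPM in unshielded libraries without LPS. For Parp12, shielded LPS libraries had 194, 155 and 162 CPM, against 64.1, 56.8 and 56.4 CPM in shielded libraries without LPS. LPS and no-LPS libraries did not overlap. The log2 fold changes were 1.67 ± 0.10 and 1.52 ± 0.10 in unshielded and shielded mice (edgeR adjusted p = 2.22e-07 and 1.15e-07). Parp14, with the largest change in shielded mice, had 237, 313 and 304 CPM in unshielded LPS libraries, against 97.4, 107 and 111 CPM in unshielded libraries without LPS. For Parp14, shielded LPS libraries had 459, 332 and 299.8 CPM, against 109, 99.5 and 82.8 CPM in shielded libraries without LPS. Its log2 fold change was 1.44 ± 0.16 in unshielded and 1.91 ± 0.17 in shielded mice, again without overlap (edgeR adjusted p = 2.2e-05 and 9.45e-07). Dtx3l had 75.9, 83.4 and 83.1 CPM in unshielded LPS libraries, against 42.1, 44.1 and 45.1 CPM in unshielded libraries without LPS. For Dtx3l, shielded LPS libraries had 106, 88.99 and 79.4 CPM, against 49.4, 51.2 and 38.9 CPM in shielded libraries without LPS. It changed least of the 4, by 0.88 ± 0.12 and 0.98 ± 0.12 on the log2 scale in unshielded and shielded mice (edgeR adjusted p = 7.8e-05 and 1.57e-05). Parp9 changed by 1.53 ± 0.11 and 1.50 ± 0.10, and it shares 458 exon bases with Dtx3l on the other strand, so reads of the 2 cannot be fully told apart.

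The 5 members at membranes or in secretion differed widely in their responses. Ifitm3, which blocks virus fusion in endosomes, had 306, 373 and 291 CPM in unshielded LPS libraries, against 47.5, 43.9 and 53.4 CPM in unshielded libraries without LPS. For Ifitm3, shielded LPS libraries had 332, 224 and 297 CPM, against 49.5, 36.5 and 34.7 CPM in shielded libraries without LPS. LPS libraries lay far above the others, at log2 fold changes of 2.74 ± 0.18 and 2.82 ± 0.18 in unshielded and shielded mice (edgeR adjusted p = 3.7e-07 and 8.93e-08). Bst2 (tetherin), which holds budding viruses at the cell surface, had 432, 518 and 451 CPM in unshielded LPS libraries, against 469, 347 and 382 CPM in unshielded libraries without LPS. For Bst2, shielded LPS libraries had 267, 186 and 205 CPM, against 187, 115 and 132 CPM in shielded libraries without LPS. The LPS and no-LPS libraries overlapped in both kinds of mice, and all unshielded libraries were above all shielded ones. The log2 fold change of Bst2 was 0.22 ± 0.19 in unshielded and 0.60 ± 0.19 in shielded mice (edgeR adjusted p = 0.342 and 0.0136). In shielded mice Bst2 missed the threshold when LPS library 1 was dropped (0.44, adjusted p = 0.0581), when library 2 of the group without LPS was dropped (0.46, adjusted p = 0.0543) and with library totals (0.25, adjusted p = 0.196). Rtp4, a Golgi protein, changed by 2.26 ± 0.16 and 2.57 ± 0.16 in unshielded and shielded mice. The secreted galectin-binding protein Lgals3bp changed by 1.40 ± 0.14 and 1.09 ± 0.14, and Tor3a, of the torsin family, by 0.94 ± 0.11 and 0.97 ± 0.11 (edgeR adjusted p at most 2.82e-05 for these 3).

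Ifi44, a cytoplasmic protein of the interferon response, had 22.6, 26.4 and 25.4 CPM in unshielded LPS libraries, against 3.899, 5.49 and 7.03 CPM in unshielded libraries without LPS. For Ifi44, shielded LPS libraries had 21.5, 15 and 19.3 CPM, against 3.84, 3.33 and 2.12 CPM in shielded libraries without LPS. No groups overlapped, and its log2 fold change was 2.18 ± 0.24 in unshielded and 2.59 ± 0.24 in shielded mice (edgeR adjusted p = 1.78e-05 and 2.2e-06). Ifi35, which pairs with the protein NMI, had 58.03, 59.1 and 61.2 CPM in unshielded LPS libraries, against 16.3, 15.8 and 16.5 CPM in unshielded libraries without LPS. For Ifi35, shielded LPS libraries had 81.8, 68.5 and 68.9 CPM, against 18, 16.9 and 16.8 CPM in shielded libraries without LPS. No groups overlapped, and the log2 fold change was 1.87 ± 0.08 in unshielded and 2.08 ± 0.08 in shielded mice (edgeR adjusted p = 3.07e-08 and 9.41e-09).

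**Figure D2:**
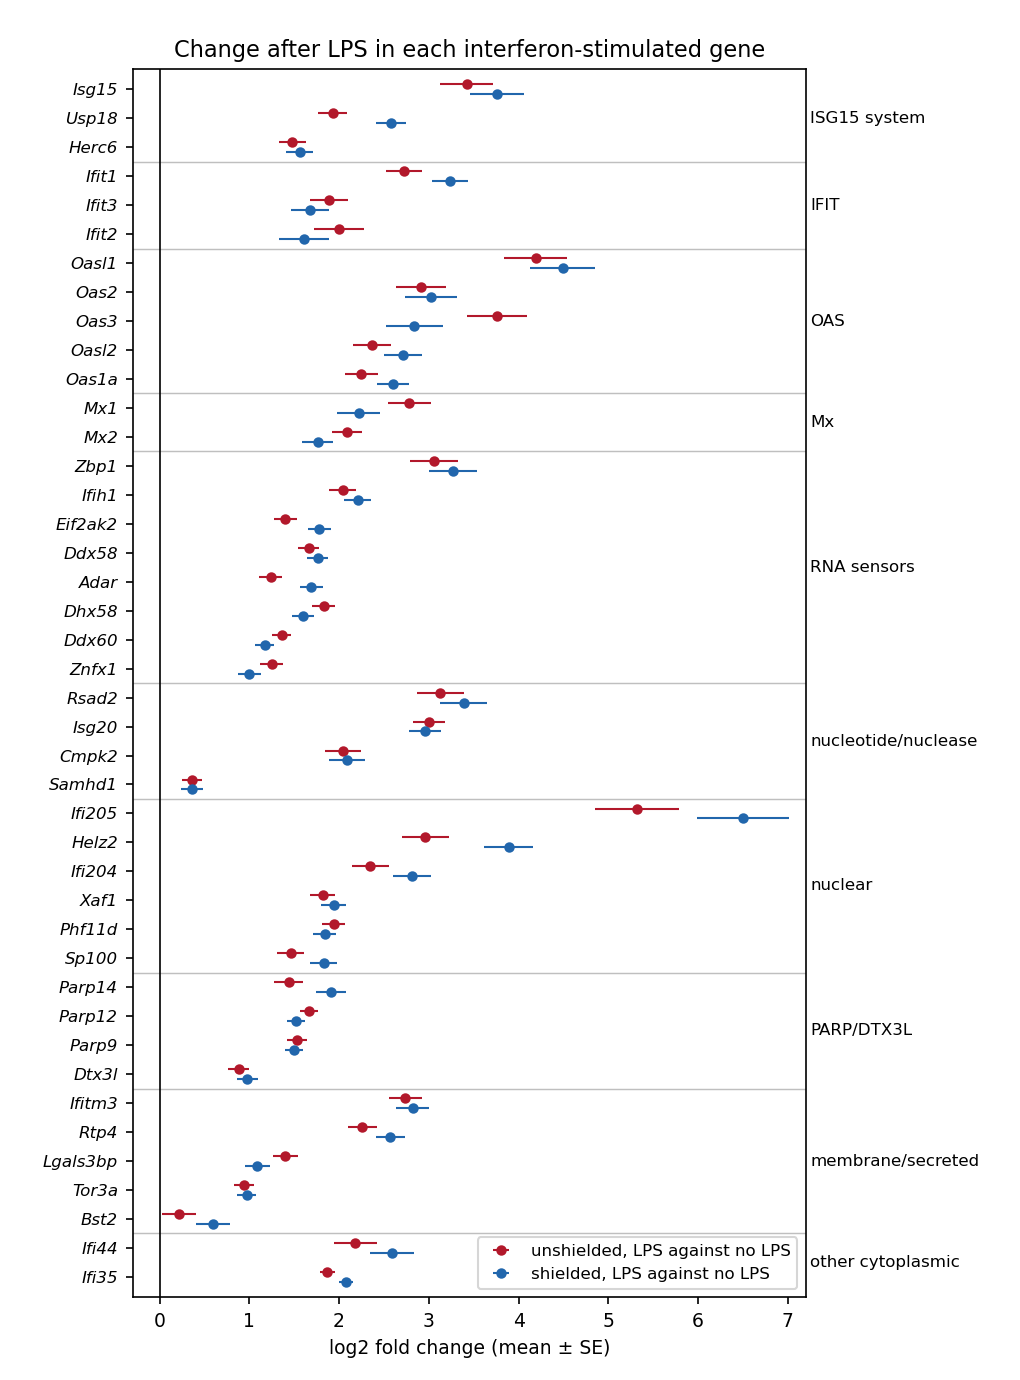
Points are log2 fold changes, LPS against no LPS, with SE bars, for unshielded and shielded mice; members are grouped by role. In both kinds of mice Ifi205 (5.32 and 6.50) lies farthest right and Bst2 and Samhd1 lie nearest to 0.

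Levels of different genes were compared per kilobase of exon. Without LPS, Bst2 was the most abundant member in both kinds of mice, at 442 ± 69.4 CPM per kilobase in unshielded and 160.0 ± 41.6 in shielded mice (SD, n = 3 each). Lgals3bp followed at 122 ± 8.25 and 148 ± 12.9, and Ifitm3 at 71.2 ± 7.02 and 59.3 ± 11.9 CPM per kilobase. In shielded mice Bst2 and Lgals3bp did not differ beyond their spread. After LPS, Ifitm3 stood at 477 ± 64.6 CPM per kilobase in unshielded and 419 ± 81.2 in shielded mice. Bst2 stood at 517 ± 49.7 and 243 ± 47.2, and Lgals3bp at 320.0 ± 45.3 and 317 ± 53.8 CPM per kilobase. Bst2 and Ifitm3 lay within their spread of each other in unshielded LPS libraries, while Ifitm3 led in shielded ones. Isg15 came to 76.4 ± 10.2 CPM per kilobase in unshielded and 117 ± 29.4 in shielded LPS libraries. Ifi205, the member with the largest fold change, stayed among the least abundant after LPS, at 4.62 ± 1.66 and 4.93 ± 1.20 CPM per kilobase.

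Without LPS, few members differed between unshielded and shielded mice. Bst2, Ifi204 and Oasl2 were higher in unshielded mice and none was lower, so 3 of 42 were called, where 3.98% of all genes were higher and 6.85% lower. The median difference of the members was 0.13 on the log2 scale, against 0 over all genes. Bst2 had 469, 347 and 382 CPM in unshielded libraries without LPS, against 187, 115 and 132 CPM in shielded ones. The groups were separate, and the difference was 1.47 ± 0.19 (edgeR adjusted p = 0.000486). Ifi204 had 73.95, 60.3 and 72.6 CPM in unshielded libraries without LPS, against 57.3, 33.1 and 32.8 CPM in shielded ones. The groups did not overlap, with shielded library 1 close to the lowest unshielded library, and the difference was 0.75 ± 0.20 (edgeR adjusted p = 0.0313). Oasl2 had 38.5, 40.4 and 47.8 CPM in unshielded libraries without LPS, against 34.98, 21.8 and 20.6 CPM in shielded ones. Here too shielded library 1 lay nearest to the unshielded libraries, and the difference was 0.71 ± 0.20 (edgeR adjusted p = 0.0441). Values did not overlap for 14 members, of which 10 were higher and 4 lower in unshielded mice, where 14.2% and 19.4% of all genes were.

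These counts rest on few libraries. Without shielded library 1 without LPS, 10 members were called, all higher in unshielded mice. Without shielded library 2 or 3 without LPS, or without unshielded library 3 without LPS, only Bst2 was called, and without shielded LPS library 1, 7 members were. Without both shielded libraries whose labels conflict, no member was called by edgeR, where Bst2 stood at 1.09 (adjusted p = 0.0553), Ifi204 at 0.26 (adjusted p = 0.671) and Oasl2 at 0.26 (adjusted p = 0.726). Marrow-derived macrophage markers were higher in unshielded mice for 7 of 7 genes, and their part in the Bst2 difference was not tested. Bst2 is also a surface marker of plasmacytoid dendritic cells, whose 4 other markers summed to 23.3 to 29.8 CPM in unshielded and 18.6 to 29.1 CPM in shielded libraries without LPS. Nearly all of that came from Pacsin1, and Klk1 and Ly6d were at or near 0 in every library.

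After LPS, members were called in both directions, in smaller shares than among all genes. In unshielded mice 7 were higher (Oas3, Mx1, Bst2, Oas2, Mx2, Dhx58 and Samhd1) and 4 were lower (Helz2, Ifit1, Eif2ak2 and Ifi35). That made 11 of 42, where 44.6% of all genes were called, 19.1% higher and 25.6% lower, and the median difference was 0.04, against 0.07 over all genes. Oas3 had 129, 165 and 116 CPM in unshielded LPS libraries, against 66.7, 40.3 and 56.8 CPM in shielded LPS libraries. Mx1 had 107, 162 and 179 CPM in unshielded LPS libraries, against 71.98, 55.7 and 71.6 CPM in shielded LPS libraries. For both genes, unshielded libraries lay well above shielded ones, and the differences were 1.32 ± 0.29 for Oas3 and 1.17 ± 0.22 for Mx1 (edgeR adjusted p = 0.00412 and 0.00155). Bst2 had 432, 518 and 451 CPM in unshielded LPS libraries, against 267, 186 and 205 CPM in shielded LPS libraries. All 3 unshielded libraries were above the shielded ones, by 1.09 ± 0.19 on the log2 scale (edgeR adjusted p = 0.000596). Neither Oas3, Mx1 nor Bst2 lost its call when any single library was left out. The 7 marrow-derived macrophage markers were all higher in unshielded mice after LPS too, and their part in these differences was not tested.

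The other 4 higher members had smaller differences. Oas2 had 144, 208 and 139.7 CPM in unshielded LPS libraries, against 126, 77.6 and 75.1 CPM in shielded LPS libraries. Mx2 had 36.4, 47.8 and 54.5 CPM in unshielded LPS libraries, against 33.4, 28.8 and 31.3 CPM in shielded LPS libraries. Both were higher in each unshielded library than in any shielded one, by 0.82 ± 0.26 for Oas2 and 0.57 ± 0.17 for Mx2 (edgeR adjusted p = 0.0256 and 0.0154). Dhx58 had 85.01, 99.3 and 93.5 CPM in unshielded LPS libraries, against 76.4, 64.3 and 72.5 CPM in shielded LPS libraries. Samhd1 had 197, 228 and 196 CPM in unshielded LPS libraries, against 172, 138 and 187 CPM in shielded LPS libraries. The groups did not overlap for these either, at 0.38 ± 0.12 for Dhx58 and 0.32 ± 0.11 for Samhd1 (edgeR adjusted p = 0.022 and 0.0373). The call of Oas2 was lost without shielded LPS library 2 or 3 or unshielded LPS library 2, that of Mx2 without shielded LPS library 2 or unshielded LPS library 3, and that of Dhx58 without shielded LPS library 2 or unshielded LPS library 2 or 3. The call of Samhd1 was lost when any of the 12 libraries was left out, and without both libraries whose labels conflict (0.31, adjusted p = 0.0631).

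Among the lower members, Helz2 had 87.2, 124 and 90.7 CPM in unshielded LPS libraries, against 247, 173 and 146 CPM in shielded LPS libraries. The groups did not overlap, and the difference was -0.91 ± 0.24 (edgeR adjusted p = 0.00977). It was -0.50 with the neuron and oligodendrocyte covariate (adjusted p = 0.137). Ifi35 had 58.03, 59.1 and 61.2 CPM in unshielded LPS libraries, against 81.8, 68.5 and 68.9 CPM in shielded LPS libraries. Eif2ak2 had 109.6, 127 and 117 CPM in unshielded LPS libraries, against 176, 146 and 131 CPM in shielded LPS libraries. Both were lower in each unshielded library, with differences of -0.30 ± 0.08 for Ifi35 and -0.36 ± 0.13 for Eif2ak2 (edgeR adjusted p = 0.00947 and 0.0394). Ifit1 had 34.4, 33.5 and 41.9 CPM in unshielded LPS libraries, against 60.1, 41.5 and 51.5 CPM in shielded LPS libraries. Its highest unshielded library passed its lowest shielded one, and the difference was -0.48 ± 0.18 (edgeR adjusted p = 0.0457). Isg15 (-0.62 ± 0.26, adjusted p = 0.0741) and Usp18 (-0.35 ± 0.16, adjusted p = 0.0803) had lower values in each unshielded LPS library, without passing the threshold. The call of Ifit1 was lost without shielded LPS library 1, unshielded LPS library 1 or 2, or shielded library 2 without LPS, and that of Eif2ak2 without shielded LPS library 1 or 2 or unshielded LPS library 1 or 3. Without unshielded LPS library 2, or without unshielded LPS library 3, 7 members were called. Values did not overlap for 14 members, 8 higher and 6 lower in unshielded mice, where 21.8% and 27.6% of all genes were.

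**Figure D3:**
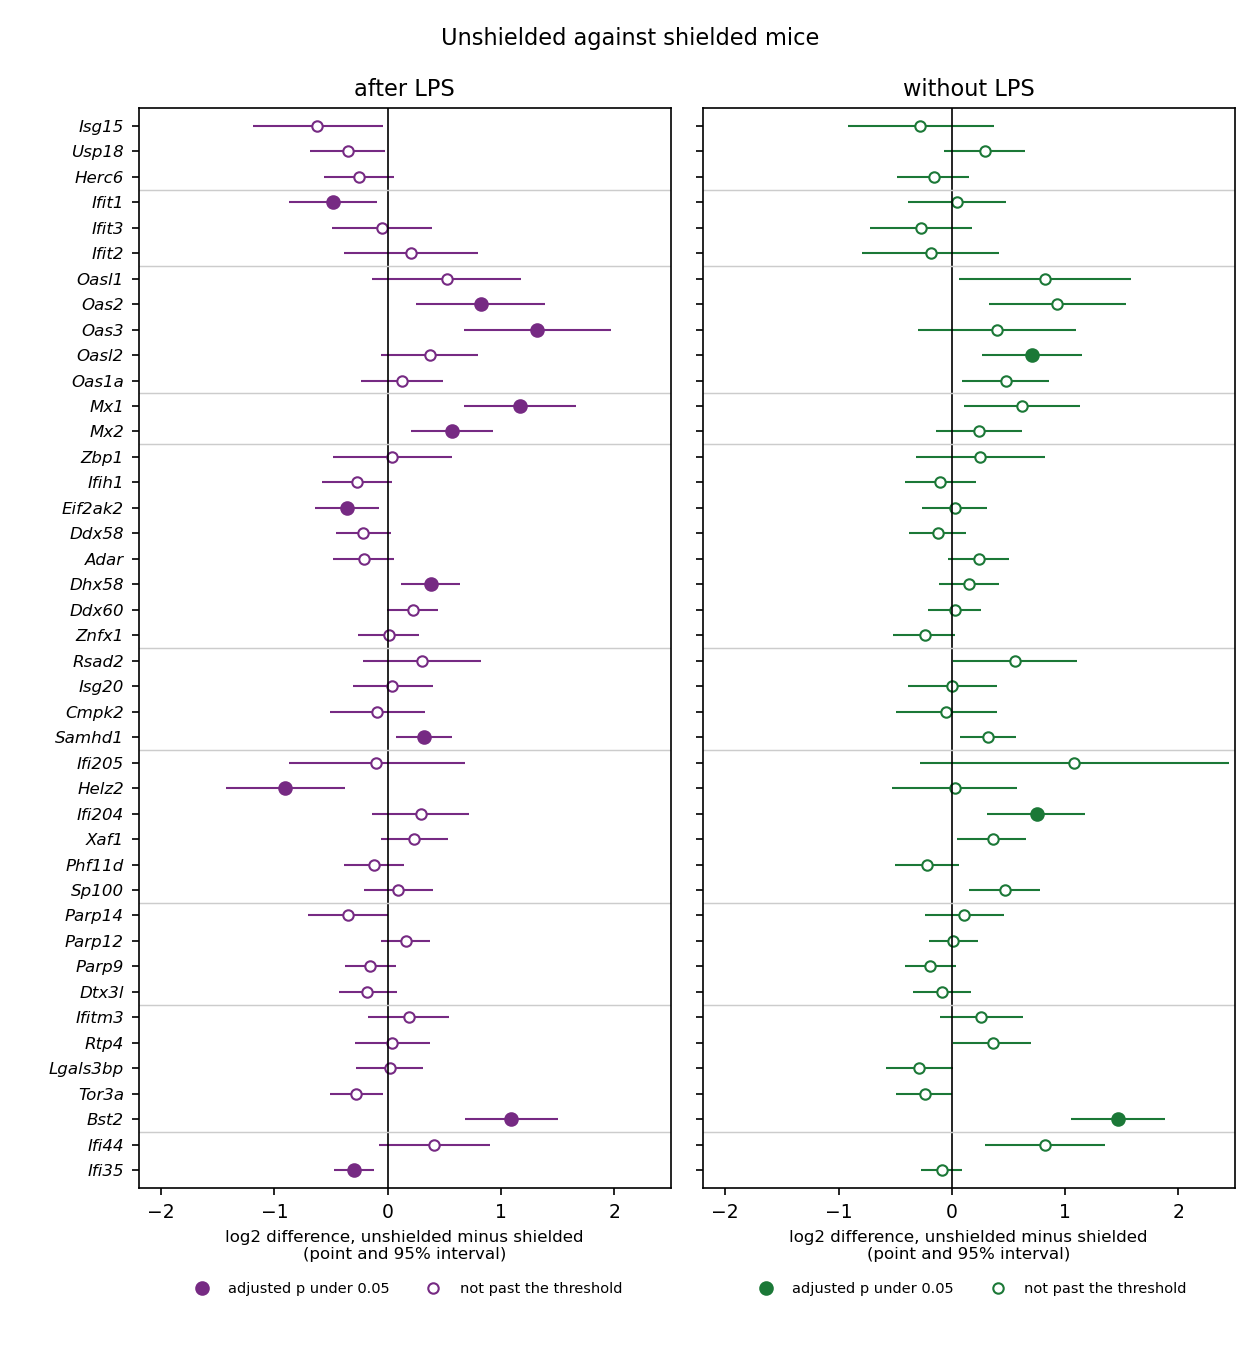
Points are log2 differences, unshielded minus shielded, with 95% intervals, after LPS and without LPS; filled points passed the threshold. Bst2 (1.09 and 1.47) is filled in both panels, Oas3 and Mx1 are filled after LPS, and Helz2 (-0.91) lies farthest left.

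**Figure D4:**
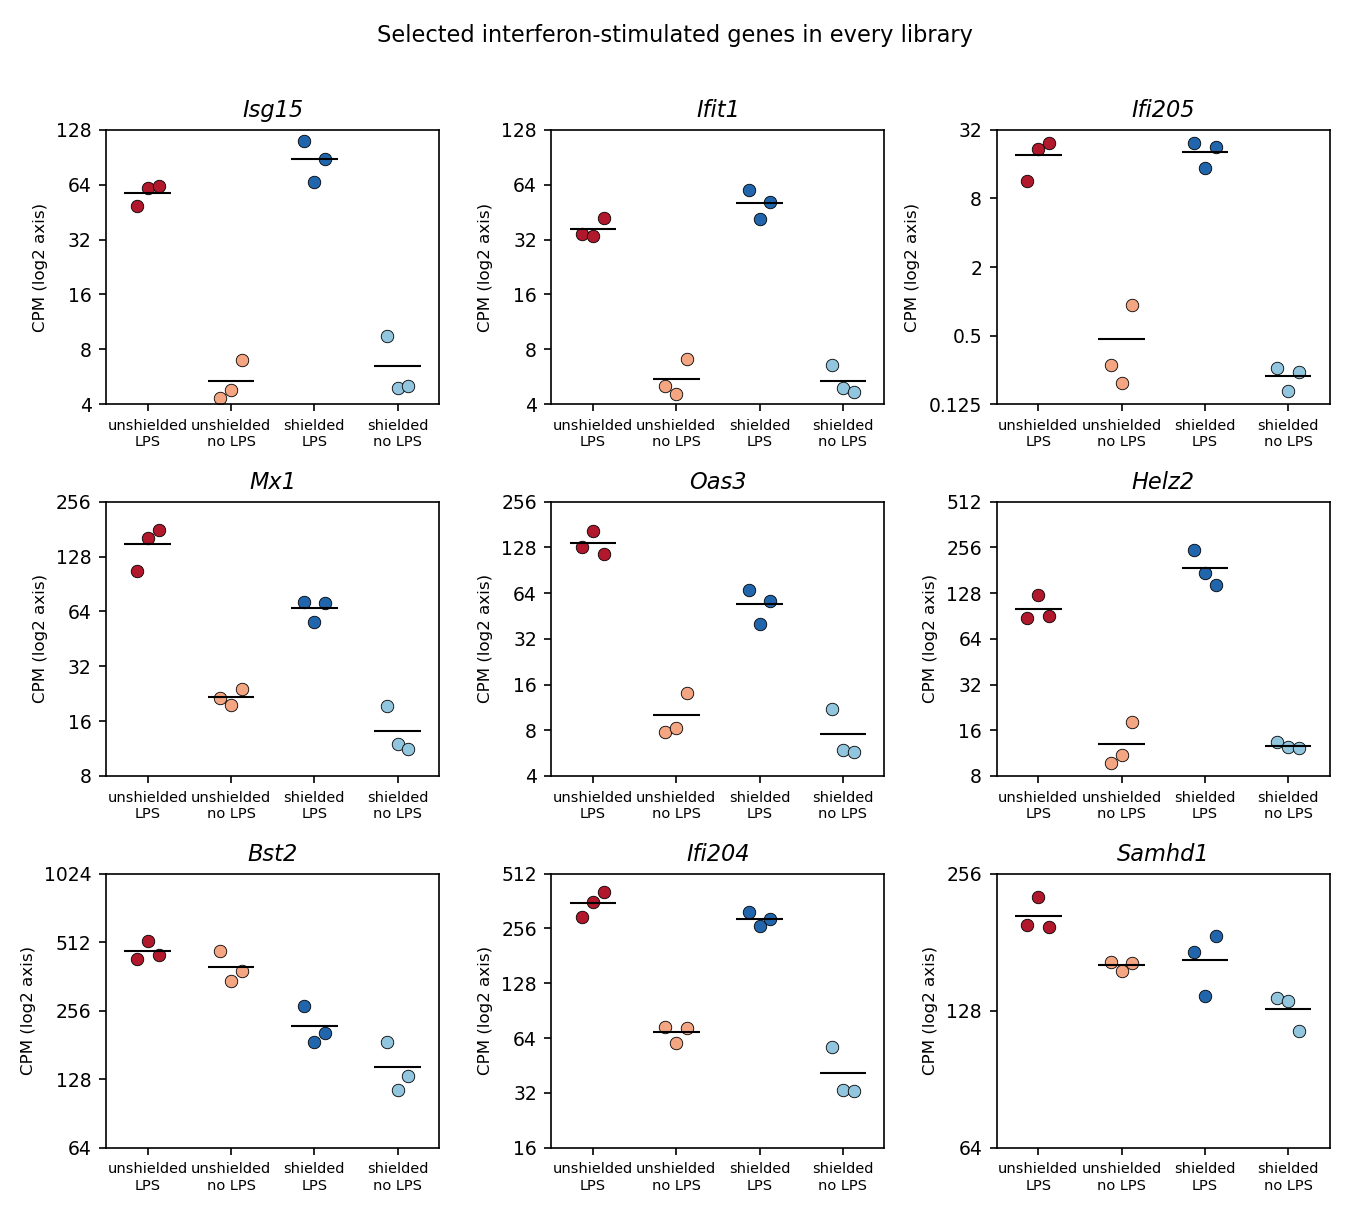
Points are libraries, lines are group means, and the axis is CPM on a log2 scale. By group mean, Isg15, Ifit1 and Helz2 are highest in shielded LPS libraries and Mx1 and Oas3 in unshielded LPS libraries, and Bst2 separates unshielded from shielded libraries with or without LPS.

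The size of the LPS response itself was compared between the kinds of mice as the LPS effect in unshielded minus that in shielded mice. No member passed the threshold in edgeR, where 13.3% of all genes did, 4.06% higher and 9.25% lower. At an unadjusted p under 0.05 there were 3 of 42 members, Helz2, Usp18 and Adar, and 5472 of the 18875 genes tested. DESeq2 called 2, Helz2 at -0.96 (adjusted p = 0.0348) and Usp18 at -0.67 (adjusted p = 0.0451). The edgeR differences were -0.94 ± 0.35 for Helz2, -0.65 ± 0.23 for Usp18 and -0.45 ± 0.18 for Adar (adjusted p = 0.1, 0.0808 and 0.113). With replicate number as a block over all libraries, Usp18 was called, at -0.64 (edgeR adjusted p = 0.0448). The largest positive difference was that of Oas3, at 0.92 ± 0.43 (adjusted p = 0.184). With 3 libraries a group the 95% intervals were wide, from -0.03 to 1.87 for Oas3, so these members were not shown to respond alike. Without shielded LPS library 3, 5 members were called (Eif2ak2, Adar, Helz2, Parp14 and Usp18), all lower. Without shielded library 1 without LPS, 3 were called (Usp18, Ifi204 and Rtp4), without shielded LPS library 2 Usp18 was, and without unshielded LPS library 2 Adar was.

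Within groups, most members ranked the same library highest or lowest. The share of all genes that did so was not counted, so this is not shown to be particular to the members. Shielded LPS library 1 was the highest of its group for 37 of 42 members, and shielded library 1 without LPS for 40 of 42. Unshielded library 3 without LPS was the highest of its group for 33, and unshielded LPS library 1 the lowest of its group for 32. Shielded LPS library 1 also had the least neuron (32.9 CPM) and oligodendrocyte (424 CPM) marker signal of its group. Shielded library 1 without LPS had the most marrow-derived macrophage signal of its group, at 26600 CPM, against 7950 and 13200 CPM in libraries 2 and 3. The part of these signals in the members' levels was not tested.

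Other genes of the interferon pathway were read from a list of 57, of which 52 were tested. After LPS 33 were higher and 6 lower in unshielded mice, where 24.3% of all genes were higher and 18.8% lower. In shielded mice 37 were higher and 4 lower, where 32.4% and 35.1% of all genes were, and these shares also stand behind the counts by role that follow. Between unshielded and shielded mice 8 were higher and 13 lower after LPS, where 19.1% and 25.6% of all genes were. Without LPS 8 were higher and 3 lower, where 3.98% and 6.85% of all genes were. The interferon ligands were scarce. Ifnb1, interferon beta, had 0.463, 0.936 and 0.616 CPM in unshielded LPS libraries, against 0.251, 0.289 and 0.115 CPM in unshielded libraries without LPS. For Ifnb1, shielded LPS libraries had 2.08, 1.504 and 1.15 CPM, against 0.259, 0.355 and 0.325 CPM in shielded libraries without LPS. LPS libraries were the higher ones, at log2 fold changes of 1.64 ± 0.41 and 2.34 ± 0.36 in unshielded and shielded mice (edgeR adjusted p = 0.00596 and 0.000117). The Ifna1, Ifna2, Ifna4 and Ifna5 genes had at most 3 counts in any library and were not tested. Ifng, a product of lymphocytes, had at most 25 counts in any library but was tested. It was called higher after LPS, at 2.42 in unshielded and 2.3 in shielded mice on the log2 scale. Its counts in shielded mice were 25, 8 and 14 after LPS, against 1, 10 and 1 without LPS.

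Of the 7 receptor and kinase genes, 3 were higher and 1 lower after LPS in unshielded mice, and 4 were higher and none lower in shielded mice. Jak1 rose by 1.02 ± 0.12 and 1.67 ± 0.13 and Ifngr1, a chain of the interferon gamma receptor, by 0.86 ± 0.10 and 1.11 ± 0.10 in unshielded and shielded mice. Ifnar1 fell in unshielded mice (-0.50 ± 0.12, edgeR adjusted p = 0.00591) and had 0.13 ± 0.12 in shielded mice, where library totals gave -0.23. Of the 7 transcription factor genes, 4 were higher and 1 lower in unshielded mice, and 5 higher and none lower in shielded mice. Irf7, which amplifies interferon production, rose most, with 234, 288 and 255 CPM in unshielded LPS libraries, against 28.9, 32.1 and 41.04 CPM in unshielded libraries without LPS. For Irf7, shielded LPS libraries had 218, 162 and 217 CPM, against 36.9, 17.97 and 21.1 CPM in shielded libraries without LPS. LPS and no-LPS libraries were far apart, at 2.93 ± 0.25 and 2.97 ± 0.25 in unshielded and shielded mice (edgeR adjusted p = 5.23e-06 and 1.69e-06). Stat2 rose by 2.02 ± 0.13 and 1.88 ± 0.13, and Irf9 by 0.94 ± 0.09 and 1.45 ± 0.09. Irf8, a factor of myeloid cells, had 306, 273 and 225 CPM in unshielded LPS libraries, against 604, 564 and 539 CPM in unshielded libraries without LPS. For Irf8, shielded LPS libraries had 609, 454 and 397 CPM, against 614, 648 and 579 CPM in shielded libraries without LPS. It fell in unshielded mice (-1.09 ± 0.15, edgeR adjusted p = 0.000104), while in shielded mice library 1 after LPS overlapped the libraries without LPS (-0.34 ± 0.15, adjusted p = 0.0644).

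Among the brakes on signalling, 3 of 5 rose and 1 fell in each kind of mouse. Socs3 rose by 3.71 ± 0.24 and 2.79 ± 0.23, Socs1 by 1.89 ± 0.21 and 1.33 ± 0.21 and Trim30a by 1.82 ± 0.13 and 2.21 ± 0.13 in unshielded and shielded mice. Ptpn6, a phosphatase, fell, at -0.57 ± 0.11 in unshielded and -0.38 ± 0.11 in shielded mice on the log2 scale (edgeR adjusted p = 0.00108 and 0.00872). Dropping LPS library 2 ended the call in shielded mice (-0.30, adjusted p = 0.0647). Of the 10 sensing and adaptor genes, 5 were higher and 2 lower in unshielded mice, and 8 higher and 1 lower in shielded mice. Ikbke, a kinase that activates interferon regulatory factors, had 56.5, 107 and 58.6 CPM in unshielded LPS libraries, against 4.36, 3.27 and 7.61 CPM in unshielded libraries without LPS. For Ikbke, shielded LPS libraries had 96.3, 79.8 and 84.8 CPM, against 1.49, 1.23 and 1.28 CPM in shielded libraries without LPS. From a low level without LPS it rose by 3.84 ± 0.32 and 6.02 ± 0.36 in unshielded and shielded mice (edgeR adjusted p = 4.95e-06 and 1.86e-07).

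Of the 2 partner enzymes of ISG15, 1 rose in both kinds of mice and 1 fell in shielded mice. Uba7, the enzyme that activates ISG15, had 182, 216 and 169.6 CPM in unshielded LPS libraries, against 169.8, 158 and 164 CPM in unshielded libraries without LPS. For Uba7, shielded LPS libraries had 119.5, 107 and 108 CPM, against 147, 157 and 139 CPM in shielded libraries without LPS. It fell in shielded mice (-0.41 ± 0.10, edgeR adjusted p = 0.00298) and was not called in unshielded mice (0.21 ± 0.10, adjusted p = 0.103). Ube2l6, which carries ISG15 to its ligase, rose in both, by 1.29 ± 0.12 and 1.16 ± 0.12 (adjusted p at most 6e-06).

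Of 20 further interferon-stimulated genes, 19 were tested. After LPS 15 were higher and 1 lower in unshielded mice, and 14 higher and 1 lower in shielded mice. Ifitm1 rose by 2.74 ± 0.32 and 2.83 ± 0.32, Oas1g by 2.38 ± 0.19 and 2.49 ± 0.19, and Ifitm2 by 3.25 ± 0.14 and 2.45 ± 0.14 in unshielded and shielded mice. Tmem140 fell (-0.59 ± 0.15 and -1.16 ± 0.15, edgeR adjusted p = 0.00688 and 3.27e-05). It shares 2168 exon bases with Cyren on the other strand, so its counts are uncertain. Ifi203, a PYHIN gene beside Ifi204, had 70.5, 99.4 and 103 CPM in unshielded LPS libraries, against 49.9, 49.6 and 59.9 CPM in unshielded libraries without LPS. For Ifi203, shielded LPS libraries had 11.8, 10.01 and 20.2 CPM, against 19.7, 9.56 and 10.3 CPM in shielded libraries without LPS. All unshielded libraries were above all shielded ones, with differences, unshielded minus shielded, of 2.69 ± 0.32 after LPS and 2.0 ± 0.31 without LPS (edgeR adjusted p = 7.34e-05 and 0.00199). Its neighbour Mndal showed differences of 2.83 ± 0.33 and 1.91 ± 0.31 (edgeR adjusted p = 5.94e-05 and 0.00268). Ifi203 and Mndal share exon bases, so the split of reads between them is uncertain.

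**Figure D5:**
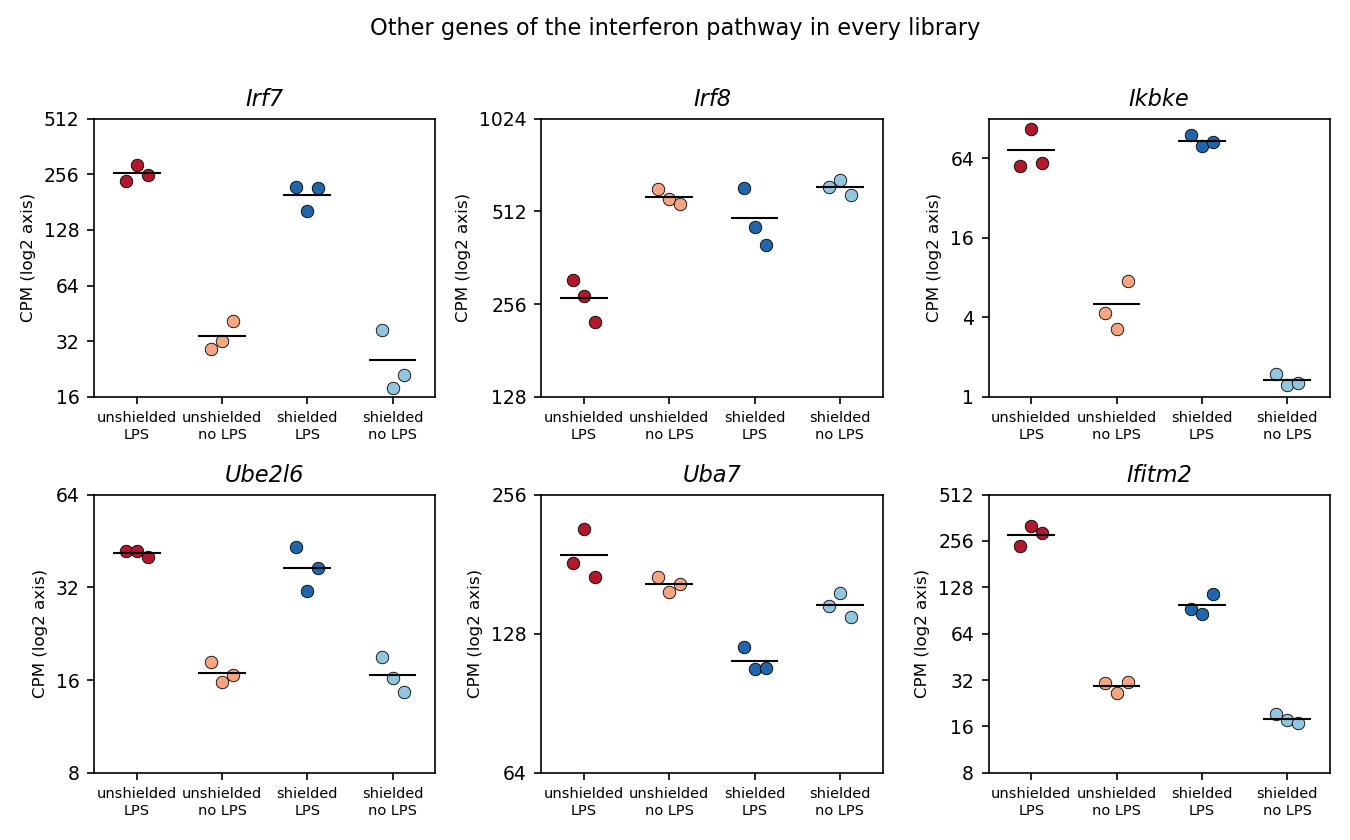
Points are libraries, lines are group means, and the axis is CPM on a log2 scale, with a range of its own in each panel. Irf7, Ikbke, Ube2l6 and Ifitm2 are higher after LPS in both kinds of mice, Irf8 is lowest in unshielded LPS libraries, and Uba7 is lowest in shielded LPS libraries.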

How the data were processed

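The authors deposited whole-number read counts per gene, without normalization. FastQC, STAR, HTSeq and the mm9 build are named in the submitters' processing notes, and the sources used here give no version, annotation or strand setting. RNA had been amplified linearly, per the labels' protocols.

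Libraries were grouped by title (12 libraries, 4 groups of 3). The members and all lists were chosen with earlier results of these data known. Counts were tested with edgeR 4.0.16 in R 4.3.3 (filterByExpr, minimum count 10; TMM; robust quasi-likelihood fit over all libraries; two-sided, Benjamini-Hochberg over 18875 genes), in 5 comparisons. All adjusted p-values are edgeR's unless DESeq2 (1.42.0) is named. SE was taken as the size of the log2 fold change over the square root of F, and intervals are 95%. CPM are TMM-scaled. The test was checked on simulated counts for the LPS comparisons in unshielded and shielded mice only. Per-kilobase levels use GENCODE exon lengths. Every member may be named, and pathway genes if called in a comparison, at 0 or filtered out; some genes of the pathway list are not reported here. Library values are given for the members with the largest and smallest LPS change in each role; the other genes with library values were chosen after their values were seen.

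Deviations of same-numbered shielded libraries correlated at 0.112, 0.194 and 0.547 across genes, against -0.483 to 0.399 for differently numbered ones. These values do not settle whether the numbers mark pairs. The main fit took no account of replicate number, and fits blocked by it are given as alternatives. Libraries of a group were not copies (chi-square per degree of freedom 11.2 to 42.3).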

Additional observations from a re-analysis of the deposited data

Results flagged for a closer look

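For the difference of LPS effects between unshielded and shielded mice, no member passed the edgeR threshold and 10 of 52 other pathway genes did, where 13.3% of all genes tested did. The test of the difference itself drew attention to each. LPS effects in unshielded minus shielded mice were negative for 8 genes. They were -2.18 for Ikbke, -1.05 for Ticam2, -0.75 for Irf8, -0.69 for Ifngr2, -0.64 for Jak1, -0.62 for Ifnar1, -0.52 for Irf3 and -0.51 for Irf9 on the log2 scale (edgeR adjusted p = 0.00726 to 0.0357). Those genes encode signalling kinases, an adaptor of Toll-like receptor 4, interferon receptor chains and interferon regulatory factors. Without LPS, Ikbke was 1.94 higher in unshielded mice on the log2 scale, with only 38 to 69 counts a library in shielded mice. After LPS the Ikbke levels of the 2 kinds of mice overlapped. Effects were positive for Ifitm2 (0.80) and Uba7 (0.61), with edgeR adjusted p of 0.0165 and 0.0131.

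Without the 2 shielded libraries whose labels conflict, none of the 10 passed the edgeR threshold (adjusted p = 0.0949 to 0.307). Leaving out single libraries also ended the calls of Ifnar1, Jak1, Irf8, Irf3, Irf9, Uba7 and Ifitm2 in at least 1 case each, and in no case those of Ikbke, Ticam2 or Ifngr2. Ticam2 shares 838 exon bases with Tmed7 on the same strand, so its counts are uncertain.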

How the results depend on the processing

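The 2 counts of members raised by LPS held at 40 to 42 (shielded) and 40 to 41 (unshielded) under the alternatives other than grouping 2 shielded libraries by their treatment field, which called 0 and 0 at member medians of 1.25 (shielded) and 1.94 (unshielded). In single members, 4485 of 4744 alternatives kept direction and side of the threshold, counting 205 sign changes where neither value was called. For pathway genes it was 5437 of 5871. The cause of the changes below was not tested.

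Members called between unshielded and shielded mice without LPS (3) numbered 6 with library totals, 1 without a filter, 5 with at least 10 counts in 6 libraries, 0 without the libraries with conflicting labels, 0 grouped by the field, 10 with the neuron and oligodendrocyte covariate and 6 with DESeq2. After LPS (11) they numbered 6 without a filter and 1 grouped by the field. Differing LPS effects (0) numbered 2 with the covariate and 2 with DESeq2.

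Leaving out single libraries gave 41 to 42 members for LPS in shielded mice, 40 to 41 in unshielded mice, 1 to 10 without LPS, 7 to 16 after LPS and 0 to 5 for the difference. Leaving out both libraries with conflicting labels left 1 shielded library without LPS, which is assumed to vary like the other groups.

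With replicate number as a block over all libraries, 1 member had differing LPS effects (Usp18, -0.64). With the block within the groups compared, chosen after seeing the data, 9 members differed without LPS, and 41 rose in shielded mice, Samhd1 being lost (0.34, adjusted p = 0.0581). The main fit did not treat the numbers as pairs in any comparison. Outside the LPS comparison in shielded mice, same-number correlations ran from -0.264 to 0.478.

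Directions reversed grouped by the field for Bst2 (LPS in shielded mice, -0.02) and, after LPS, for Ifit1 (0.12), Eif2ak2 (0.09), Ifi35 (0.18) and Trim30a (0.15). With library totals they did for Ifnar1 (-0.23), Irf5 (-0.28) and Pias1 (-0.34) in shielded and Irf3 (-0.30) and Pias1 (-0.27) in unshielded mice. With the covariate they did for Irf5 (-0.32), Mavs (-0.07) and Tmem173 (-0.42) in shielded mice.

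The longer ISRE form was found in 22.6% of the members with a promoter, against 41.9% for the core. A fit of the compared groups only has no value for the difference, which needs all 4. Depth limited Ifi205 without LPS and the interferon ligands.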
